A study of Mus musculus with 1037 samples.

Results

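The 8 genes described here are *Ltbp2*, *Adamtsl4*, *Angptl7*, *Trabd2b*, *Plxna2*, *Tenm4*, *Lrrn3* and *Mitf*, out of 55335 genes in the count table. They encode matrix, secreted, guidance and adhesion proteins and 1 transcription factor. They were picked because they were among the leading genes of CatVII cells in these same data, so their higher level in CatVII is what chose them and is given below as a description only. The questions left to the data were how each gene was spread over the other follicle compartments and stages, whether alive and apoptotic sorts differed, and whether the genes were found in the same cells as *Cd34*, the surface marker of bulge hair follicle stem cells (HFSCs).

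The outer root sheath (ORS) is the outermost epithelial layer of the hair follicle. In anagen it runs from the bulge, where HFSCs reside, down to the bulb. In catagen the lower follicle is destroyed by apoptosis, and the surviving upper ORS forms the new bulge and germ. Basal ORS cells secrete and anchor to a basement membrane and microfibril-rich matrix, and receive Wnt, TGF-β and guidance-receptor signals from neighbouring cells.

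Single cells were profiled by Smart-seq2, a plate-based full-length method without molecular identifiers, at 3 stages in wild-type CD1 mice. These were AnaVI at postnatal day 15, CatVI at day 17 and CatVII at day 18. All sorts took singlets negative for Sca1 and for a lineage mix of CD31, CD117, CD140a and CD45. Upper and middle ORS cells were gated as CD34+ ITGA6+, whereas the gate for the lower ORS was ITGA6+ and also took in CD34-low cells. AnaVI cells came from the lower ORS (LOS) and the upper-middle ORS (UOS and MOS, which carry the same region label). CatVI upper ORS cells came on plates titled P17f, which were labelled as phagocytic (PhagoHFSC) or non-phagocytic (NonPhagoHFSC) and as alive or apop. CatVII upper ORS cells were sorted as OSalive and OSapop, alive and apoptotic by Annexin V and DAPI staining. Below, AnaVI stands for UOS and MOS together, CatVI for the P17f plates and CatVII for OSalive and OSapop. Mice were pooled per stage and none is named, so each stage is 1 sample. No test between stages or sorts was possible, and stage, sort and plate cannot be told apart. In cells pooled this way, fewer expressing cells and less RNA per cell are separated only by the shares of cells given beside each level.

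Cells with 2000 or more detected genes were kept. In all 463 cells passed: 39 of 93 LOS cells, 150 cells of UOS and MOS together (38 of 72 MOS cells and 83.6% of the UOS cells), 57 CatVI cells, 92 OSapop cells (65.2% of that sort) and 80.1% of the OSalive cells. Of the CatVI plates, 19 of 88 cells passed on P17f_pl1_PhagoHFSC_alive, 9 of 73 on P17f_pl2_PhagoHFSC_alive, 15 of 85 on P17f_pl5_PhagoHFSC_apop and 14 of 69 on P17f_pl6_NonPhagoHFSC_apop. No cell passed on either NonPhagoHFSC alive plate, so alive non-phagocytic CatVI cells were not analysed here. The median cell held from 90483 counts on P17f_pl6 to 2182588 in OSalive. A single identifier took between 56.3% and 66.5% of the counts in every group. Identifiers with a gene symbol took from 19.3% in OSalive to 28.7% on P17f_pl2, with 21.2% in OSapop and 25.1% in UOS. Levels are scaled to all counts, so they also depend on this share. Levels are CPM, the counts of a gene summed over a group's cells and scaled to a total of 1000000, and the intervals in brackets are exact 95% limits. Intervals and the limits given for a count of 0 cover counting error only. Because a deep cell shows a rare transcript more often, shares of cells are given after each cell was thinned at random to 50000 counts, with shallower cells left out.

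The cells matched their region labels in part. *Krt5*, a basal keratin, was found in 100% of AnaVI and CatVII cells and in 91.2% of CatVI cells. *Itga6*, which was gated on, had levels of 73.6, 32.2 and 69.1 CPM in AnaVI, CatVI and CatVII. *Cd34* RNA was at 80.6 CPM in UOS, 21.5 CPM in MOS, 24.9 CPM in LOS, 111.1 CPM in OSalive and 101.9 CPM in OSapop, but only at 2.98 CPM (2.15 to 4.03) in CatVI, where 4 of 57 cells held any count. CD34 protein was part of the gate of the CatVI cells, but few of them held its transcript. The paper describes both CD34-high stem and CD34-low progenitor cells in the catagen upper ORS. How much CD34 protein these CatVI cells carried was not examined here. The summed level of 6 fibroblast markers ranged from 4.0 CPM on P17f_pl5 to 1405 CPM in LOS, although CD140a was in the lineage gate, and was 188.2 CPM in CatVII. Endothelial and immune markers summed to at most 66.4 and 24.7 CPM in any group.

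The promoter windows of 4 members show the sequence around their start sites, 250 bases before to 50 after, as RefSeq places them on GRCm38.p6. *Ltbp2* and *Adamtsl4* are shown as the matrix genes of the set, and *Mitf* and *Tenm4* as the members whose windows held one of 5 motifs searched.
Ltbp2, chr12:84876442-84876741, minus strand: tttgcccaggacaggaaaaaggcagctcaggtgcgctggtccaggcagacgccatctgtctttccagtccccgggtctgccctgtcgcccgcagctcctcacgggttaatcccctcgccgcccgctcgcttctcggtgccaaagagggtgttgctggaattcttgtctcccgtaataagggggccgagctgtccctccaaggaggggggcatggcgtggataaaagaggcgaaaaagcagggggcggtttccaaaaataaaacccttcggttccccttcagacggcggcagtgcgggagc
Adamtsl4, chr3:95687868-95688167, minus strand: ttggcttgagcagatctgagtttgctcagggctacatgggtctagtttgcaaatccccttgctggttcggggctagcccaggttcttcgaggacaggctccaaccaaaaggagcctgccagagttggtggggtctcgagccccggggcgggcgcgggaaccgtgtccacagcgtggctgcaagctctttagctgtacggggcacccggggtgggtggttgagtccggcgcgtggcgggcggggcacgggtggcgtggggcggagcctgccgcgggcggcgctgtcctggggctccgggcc
Mitf, first of 3 starts, chr6:97806808-97807107, plus strand: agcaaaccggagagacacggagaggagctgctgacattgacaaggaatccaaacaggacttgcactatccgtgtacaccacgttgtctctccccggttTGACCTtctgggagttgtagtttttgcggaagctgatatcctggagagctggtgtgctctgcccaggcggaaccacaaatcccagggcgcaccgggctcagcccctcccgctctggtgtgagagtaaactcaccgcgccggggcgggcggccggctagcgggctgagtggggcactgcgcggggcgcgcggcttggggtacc
Tenm4, first of 2 starts, chr7:96170994-96171293, plus strand: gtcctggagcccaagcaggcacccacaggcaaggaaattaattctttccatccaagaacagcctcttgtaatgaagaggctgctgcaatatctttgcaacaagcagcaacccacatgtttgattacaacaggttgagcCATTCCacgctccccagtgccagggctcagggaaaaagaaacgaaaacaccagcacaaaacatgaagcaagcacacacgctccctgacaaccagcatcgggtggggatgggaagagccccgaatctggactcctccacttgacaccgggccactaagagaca
Capitals mark the motif matches, both on the minus strand. In *Mitf* they are the nuclear receptor half-site AGGTCA, and in *Tenm4* the TEAD motif GGAATG. Of the 8 members, 6 were matched to 9 windows, and *Trabd2b* and *Lrrn3* had none in the table. Searched on both strands, AGGTCA was in 1 of the 9 windows and in 16.3% of all 32851 windows, and GGAATG was in 1 and in 14.7%. The E-box CACGTG was in none of the 9 and in 7.15% of all, the M-box TCATGTG in none and in 3.77%, and the AP-1 motif TGANTCA in none and in 7.81%. None of the 5 motifs contains another, and no member window held more than 1 match. The *Plxna2*, *Ltbp2* and *Adamtsl4* windows held 25, 20 and 24 CpG dinucleotides against a median of 7 over all windows, and the *Angptl7* window held 4.

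The matrix genes *Ltbp2* and *Adamtsl4* were low in every AnaVI and CatVI group and high in both CatVII sorts. *Ltbp2* encodes a member of the latent TGF-β binding protein family that sits on microfibrils, and lies on chr12:84829986-84923306 (GRCm39, minus strand). *Ltbp2* was at 20.9 CPM in LOS, 16.6 in MOS, 20.8 in UOS, 39.9 on P17f_pl1, 25.2 on P17f_pl2, 5.78 on P17f_pl5, 4.89 on P17f_pl6, 95.5 in OSalive and 97.3 in OSapop. The CatVII sorts stood above all others and did not differ from each other beyond counting error. On P17f_pl1 and P17f_pl2, 1 cell gave 53% and 87.7% of the *Ltbp2* counts, and without those cells the levels were 19.7 and 3.52 CPM. Thinned, *Ltbp2* was found in 61.3% (52.1 to 69.9) of OSalive and 61.2% (50 to 71.6) of OSapop cells, against 21.6% (14.4 to 30.4) of UOS cells. The gene overlaps the antisense transcript *D030025P21Rik*, which held 2979 counts in CatVII against 34556 for *Ltbp2*. The libraries carry no strand, so reads from any exon sequence that such partners share cannot be told apart, and the length of such sequence was not measured.

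*Adamtsl4*, a secreted ADAMTS-like protein that binds fibrillin and has no protease domain, lies on chr3:95583509-95595231 (minus strand). It was at 5.60 CPM in LOS, 10.8 in MOS, 15.9 in UOS, 6.75 on P17f_pl1, 4.86 on P17f_pl2, 3.11 on P17f_pl5, 1.63 on P17f_pl6, 80.3 in OSalive and 75.2 in OSapop. It was the most widely found member of CatVII, in 83.1% (75.3 to 89.2) of OSalive and 72.9% (62.2 to 82) of OSapop cells when thinned, and in 38.7% (29.6 to 48.5) of UOS cells.

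The secreted factor *Angptl7*, an angiopoietin-like protein, was shared by the upper ORS of both AnaVI and CatVII and almost missing elsewhere. It lies on chr4:148579639-148584923 (minus strand), inside the span of *Mtor* on the other strand, which held 12635 counts in CatVII against 38647 for *Angptl7*. Its level was 1.21 CPM in LOS, 38.5 in MOS, 68.4 in UOS, 0.182 on P17f_pl1, 1.33 on P17f_pl5, 112.2 in OSalive and 87.5 in OSapop. No count was found in the 9 cells of P17f_pl2 or the 14 of P17f_pl6, which allows, by the rule of 3 counts used here for every 0 in place of an exact limit, shares of cells with a count of up to 33.3% and 21.4%, and levels of up to 1.32 and 1.63 CPM. The order of levels therefore ran from OSalive through OSapop and UOS to MOS, each beyond counting error, with the other groups at 1.33 CPM or less. Shares of thinned cells did not separate these groups. They were 49.2% (40.1 to 58.3) in OSalive, 40% (29.5 to 51.2) in OSapop, 42.3% (33 to 52.1) in UOS and 31.2% (16.1 to 50) in MOS. In OSapop and MOS, 1 cell gave 20.5% and 31% of the counts. Without the highest cell of each group, OSapop was at 71.5, UOS at 62.4 and MOS at 27.3 CPM. Per kilobase of transcript, *Angptl7* was the highest of the 8 members in CatVII, at 49.5 CPM per kb, and *Cd34* was at 44.2 CPM per kb.

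*Trabd2b*, whose product (also known as Tiki2) is a membrane protease that cuts and inactivates Wnt proteins, was nearly as high in AnaVI as in CatVII and almost missing from CatVI. It was at 11.9 CPM in LOS, 33.4 in MOS, 30.1 in UOS, 4.01 on P17f_pl1, 1.63 on P17f_pl6, 37.6 in OSalive and 39.3 in OSapop. It had no count on P17f_pl2 or in the 15 cells of P17f_pl5, which allows up to 1.32 and 0.667 CPM. The intervals of OSalive and MOS met, and those of MOS and UOS met. Thinned shares were also alike, at 56.8% (47 to 66.1) of UOS, 54% (44.9 to 63) of OSalive and 57.6% (46.4 to 68.3) of OSapop cells. The gene lies on chr4:114263218-114472295 (plus strand).

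**Figure D1:**
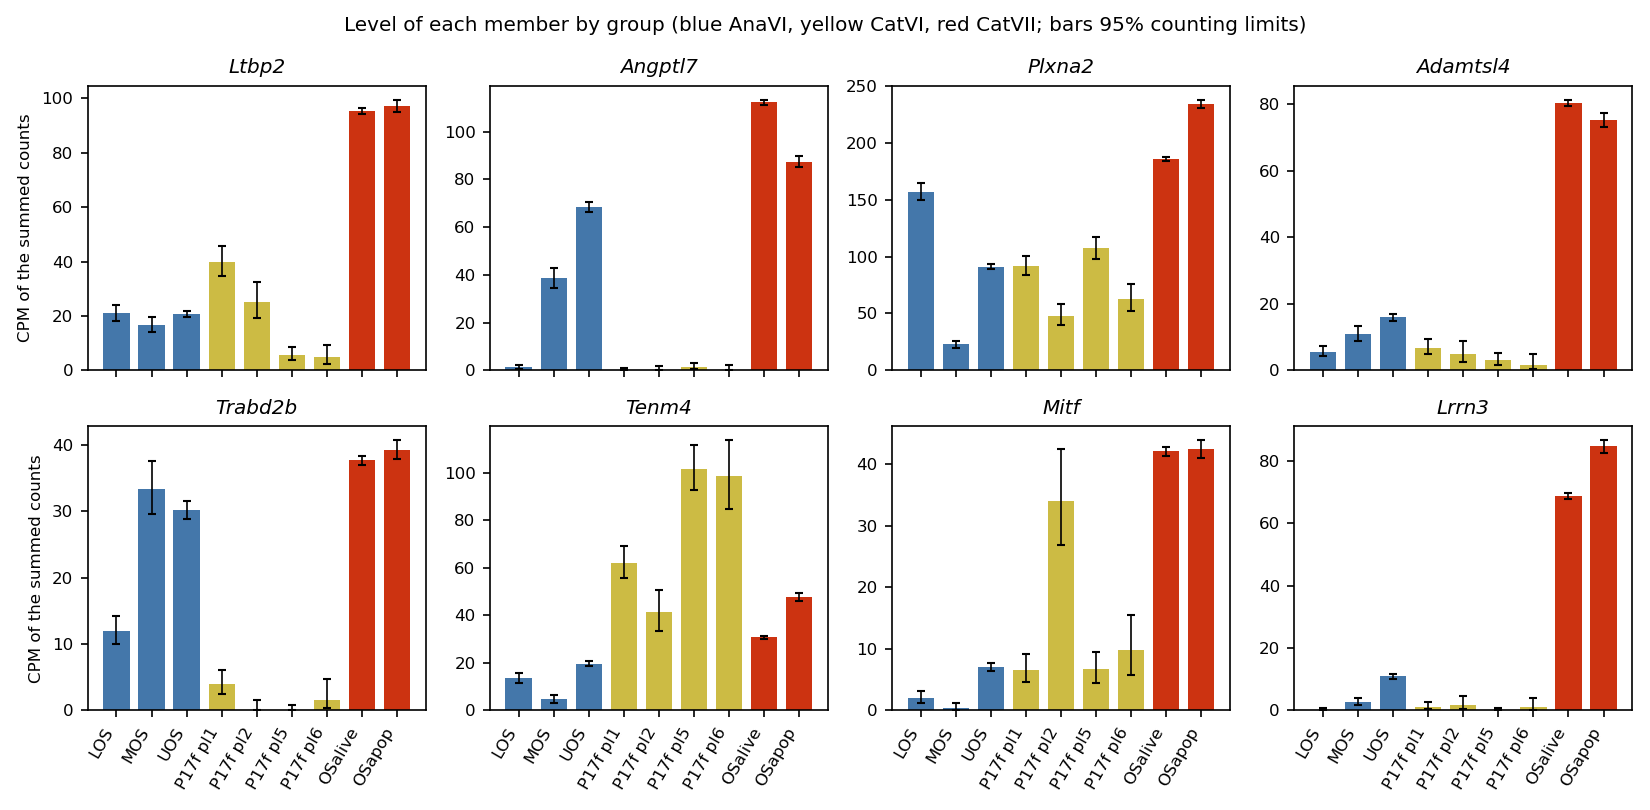
Level of each member in the 9 groups with passing cells, as CPM of the summed counts with exact 95% Poisson limits. *Ltbp2*, *Adamtsl4* and *Lrrn3* peak in the CatVII sorts OSalive and OSapop, whereas *Tenm4* peaks on the CatVI plates P17f_pl5 and P17f_pl6 at 101.7 and 98.4 CPM.

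The guidance and adhesion genes followed 3 different patterns. *Plxna2* encodes a plexin, a receptor for semaphorins, and lies on chr1:194300526-194499177 (plus strand), 121852 bases before the start of *Cd34*. It was at 157.2 CPM in LOS, 22.7 in MOS, 91.2 in UOS, 92.1 on P17f_pl1, 48.1 on P17f_pl2, 107.2 on P17f_pl5, 63 on P17f_pl6, 185.8 in OSalive and 234.6 in OSapop. LOS came next after the CatVII sorts, and 1 LOS cell gave 46.2% of its counts there. Without that cell LOS was at 115.6 CPM. *Plxna2* was found in 78.3% (56.3 to 92.5) of thinned LOS cells and 72.7% (66.2 to 78.6) of CatVII cells, so its share of cells did not separate the lower ORS of AnaVI from CatVII.

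*Tenm4*, a teneurin of cell adhesion and axon guidance, went against the label of a CatVII gene. It was at 13.5 CPM in LOS, 4.68 in MOS, 19.7 in UOS, 62 on P17f_pl1, 41.5 on P17f_pl2, 101.7 on P17f_pl5, 98.4 on P17f_pl6, 30.8 in OSalive and 47.6 in OSapop. On P17f_pl2 and P17f_pl6, 1 cell gave 83% and 59.1% of the counts, and without these the levels were 7.91 and 48 CPM. On P17f_pl5 no cell gave more than 19.9%, and 80% (51.9 to 95.7) of thinned cells held *Tenm4*. The thinned shares were 27.8% on P17f_pl1, 25% on P17f_pl2 and 33.3% on P17f_pl6. CatVI as a whole was at 76.1 CPM (71.6 to 80.8) and CatVII at 34.2 CPM (33.6 to 34.8). *Tenm4*, on chr7:95820453-96560300 (plus strand), was thus at a higher level in CatVI than in CatVII. Its share of thinned cells was not higher, at 43.4% (29.8 to 57.7) in CatVI and 46.4% (39.5 to 53.4) in CatVII. Leaving out any 1 plate kept CatVI at least 2-fold above AnaVI.

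*Lrrn3*, a transmembrane protein with leucine-rich repeats named for its neuronal expression, had, with *Mitf*, the largest folds of the 8 between CatVII and AnaVI in summed counts, and which of these 2 genes led changed with how cells were weighted. It was at 0.280 CPM in LOS, 2.57 in MOS, 11 in UOS, 1.28 on P17f_pl1, 1.77 on P17f_pl2, 1.09 on P17f_pl6, 68.7 in OSalive and 84.7 in OSapop. P17f_pl5 held no count, which allows up to 0.667 CPM. Thinned, 57.9% (50.9 to 64.7) of CatVII cells held it, against 20.7% (13.6 to 29.5) of UOS cells. *Lrrn3* lies on chr12:41499164-41536430 (minus strand), inside *Immp2l* on the other strand.

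*Mitf* encodes the helix-loop-helix factor known as the master regulator of melanocytes, and lies on chr6:97783950-97998323 (plus strand). It was at 2.05 CPM in LOS, 0.468 in MOS, 7.05 in UOS, 6.56 on P17f_pl1, 34 on P17f_pl2, 6.67 on P17f_pl5, 9.78 on P17f_pl6, 42.1 in OSalive and 42.4 in OSapop. Thinned, 58.9% (49.7 to 67.6) of OSalive and 61.2% (50 to 71.6) of OSapop cells held it, against 12.6% (7.07 to 20.3) of UOS cells. Melanocyte markers did not move with it in CatVII. The 7 markers (*Dct*, *Tyrp1*, *Tyr*, *Pmel*, *Mlana*, *Sox10* and *Kit*) summed to 1.17 CPM in CatVII, with *Mlana* and *Kit* at 0 counts, and 160 of the 171 CatVII cells with *Mitf* had no count of any. *Mitf* was at 42.8 CPM in CatVII cells without a marker and 36.3 CPM in those with one. In contrast the markers summed to 183.3 CPM in LOS and 218.1 CPM on P17f_pl2, where the cell with the most held 2200.1 CPM of markers and 162.1 CPM of *Mitf*. On that plate *Mitf* was at 28.3 CPM in cells with a marker and 40.1 CPM in those without. Without the cell with the most *Mitf* counts (41 of 77), a different cell, the plate was at 18.1 CPM. Melanocytes express KIT, which is CD117 of the lineage gate.

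Set side by side with AnaVI, all 8 genes were higher in CatVII, 5 of them at least 2-fold. The genes were picked for this contrast, and 11.5% of the 14707 genes with 100 or more counts in both stages together were also at least 2-fold higher, so nothing is read from the count. The fold was 7.16 for *Lrrn3*, 6.67 for *Mitf*, 5.18 for *Adamtsl4*, 4.72 for *Ltbp2* and 2.34 for *Plxna2*. It was 1.89 for *Tenm4*, 1.65 for *Angptl7* and 1.25 for *Trabd2b*. On the log2 scale the members' median was 1.73, beside -0.27 for all genes. Scaling by TMM or median-of-ratios factors raised the all-gene median by 0.42, and put *Tenm4* at 1.34 and *Angptl7* at 1.14, both past 2-fold. Against LOS the order changed, since *Plxna2* was only 1.24 times as high in CatVII, whereas *Angptl7* was 88.4 times as high.

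**Figure D2:**
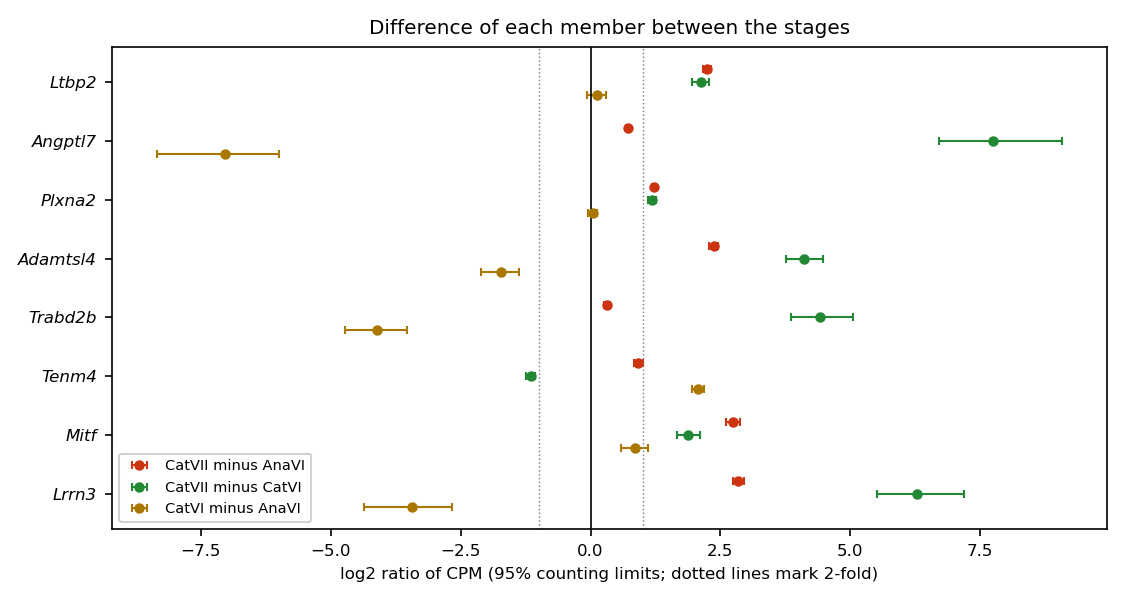
Ratio of each member's level on a log2 axis with exact 95% binomial limits, in the comparisons between stages. The values of CatVI against AnaVI spread from -7.03 for *Angptl7* to 2.08 for *Tenm4*.

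CatVI, which lies between those stages, split the 8 genes. Compared with AnaVI, 5 of 8 differed at least 2-fold, with a background of 37.5% of the 11690 genes tested. *Angptl7* was lower by log2 7.03, with 7 counts in 57 CatVI cells. *Trabd2b* was 17.2 times lower, *Lrrn3* 10.9 times lower and *Adamtsl4* 3.32 times lower, while *Tenm4* was 4.22 times higher. *Ltbp2* and *Plxna2* differed by log2 0.12 (-0.06 to 0.30) and 0.04 (-0.05 to 0.13), and *Mitf* by 0.85 (0.59 to 1.11). Leaving out P17f_pl1 put *Ltbp2* at log2 -0.93, and leaving out P17f_pl2 put *Mitf* at 0.17. *Cd34* moved with the 4 lower genes, at 24.8 times lower in CatVI, and whether the selection of cells played a part was not tested. From CatVI to CatVII, *Tenm4* was 2.23 times lower, and the other 7 were higher by between log2 1.19 (*Plxna2*) and 7.75 (*Angptl7*, from 7 counts).

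Each of the 8 genes differed less than 2-fold between OSapop and OSalive, the apoptotic and alive CatVII cells. Of the 13886 genes tested, 21.9% differed at least 2-fold, so with 8 genes nothing is read from this count. Among the genes tested, the members ranked from percentile 24.5 (*Angptl7*) to 79.7 (*Tenm4*). The median log2 difference of the members was 0.04 and that of all genes 0.12. The largest was *Tenm4*, at 47.6 CPM in OSapop and 30.8 CPM in OSalive, a log2 difference of 0.63 (0.57 to 0.69), followed by *Angptl7* at -0.36 (-0.40 to -0.32) and *Plxna2* at 0.34 (0.31 to 0.36). *Ltbp2*, *Mitf* and *Trabd2b* were within 0.07 of 0. No test was possible with 1 sort of each kind, and the 2 sorts also differed in depth, with a median of 2182588 counts per cell in OSalive and 482289 in OSapop.

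Within AnaVI, UOS and MOS share a region label, yet 4 of 8 members were at least 2-fold higher in UOS, beside 29.7% of 11114 genes that differed in either direction. *Mitf* was 15.1 times higher, from 4 counts in MOS (log2 3.91, 2.55 to 5.79). *Lrrn3*, *Tenm4* and *Plxna2* were 4.27, 4.21 and 4.01 times higher. *Angptl7*, *Adamtsl4* and *Ltbp2* were 1.78, 1.47 and 1.25 times higher, and *Trabd2b* was 1.11 times lower, within its interval. *Cd34* was 3.74 times higher in UOS. The *Plxna2* value rested on how cells were weighted, since it was log2 0.25 for the mean of the cells' CPM and 0.78 after thinning, against 2.01 for the summed counts.

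Co-detection with *Cd34* could be described in CatVII. A *Cd34* count was held by 68.2% of the CatVII cells and not by 69 of them, at like median depths of 1454427 and 1481186 counts. Of the 8 members, 7 were at least 2-fold higher in cells with *Cd34*, beside 26.6% of 13886 genes that differed 2-fold in either direction. *Ltbp2* was at 129.1 CPM in cells with *Cd34* and 18.8 CPM in those without, a fold of 6.86. *Plxna2* was at 261.2 and 44.1 CPM (5.92-fold), *Adamtsl4* at 102.6 and 25.2 CPM (4.08-fold), and *Tenm4* at 43.5 and 12.5 CPM (3.48-fold). *Mitf*, *Trabd2b* and *Angptl7* were 3.41, 3.30 and 3.03 times higher. The exception was *Lrrn3*, at 75.7 and 63.4 CPM, a fold of 1.19. The members' median log2 difference was 1.78, against -0.12 for all genes. These cells came from 1 pool and are not replicates, and the members had been picked on the same cells.

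The same split was seen in each CatVII sort, with 2 exceptions. In OSapop *Angptl7* was 1.85 times higher with *Cd34*, under 2-fold, and *Lrrn3* turned, at 78.8 CPM with *Cd34* and 97.8 CPM without. *Plxna2* varied most between the sorts, at 11.5-fold in OSalive and 2.24-fold in OSapop. Shares of thinned cells showed the pattern without the weight of single high cells. In OSalive, *Plxna2* was found in 90.8% (81.9 to 96.2) of the 76 thinned cells with *Cd34* and 45.8% (31.4 to 60.8) of the 48 without. *Adamtsl4* was found in 96.1% (88.9 to 99.2) and 62.5% (47.4 to 76), and *Mitf* in 76.3% (65.2 to 85.3) and 31.2% (18.7 to 46.3). Of these 48 cells, and of the 34 in OSapop, 9 each had held *Cd34* before thinning. For *Lrrn3* the shares were 61.8% (50 to 72.8) and 43.8% (29.5 to 58.8), whose intervals met. In OSapop the gap between the shares ran from 5.88 percentage points for *Lrrn3* to 44.1 for *Tenm4*. There the intervals met for *Lrrn3* and also for *Ltbp2* and *Mitf*. *Ltbp2* was found in 72.5% (58.3 to 84.1) and 44.1% (27.2 to 62.1), and *Mitf* in 70.6% (56.2 to 82.5) and 47.1% (29.8 to 64.9).

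In UOS the pairing with *Cd34* could not be described, since 6 cells lacked it. With all counts, *Adamtsl4* was found in 67.9% (58.2 to 76.7) of UOS cells with *Cd34* and 16.7% (0.421 to 64.1) of those without, *Ltbp2* in 34% (25 to 43.8) and 33.3% (4.33 to 77.7), and *Plxna2* in 71.7% (62.1 to 80) and 66.7% (22.3 to 95.7). Thinned UOS cells were not compared, because 17 of the 23 without *Cd34* had held it before thinning. In LOS, 19 cells held *Cd34* and 20 did not. *Adamtsl4*, *Ltbp2*, *Trabd2b* and *Plxna2* were 3.06, 1.95, 1.68 and 1.29 times as high in LOS cells with *Cd34*. *Tenm4* was 0.29 times as high, and *Mitf* 0.44 times from 22 counts, while *Angptl7* and *Lrrn3* held 13 and 3 counts in all of LOS. LOS cells with *Cd34* were deeper, at a median of 151011 against 51926 counts, as were those of MOS, at 175889 against 113704. In MOS, 20 cells held *Cd34* and 18 did not. *Angptl7*, *Plxna2*, *Tenm4* and *Lrrn3* were 0.602, 0.712, 0.571 and 0.227 times as high in MOS cells with *Cd34*, *Lrrn3* from 5 and 17 counts. *Ltbp2* and *Trabd2b* were 2.55 and 1.25 times as high, and *Adamtsl4* was at 10.8 and 10.7 CPM. The intervals of *Tenm4*, *Trabd2b* and *Adamtsl4* included equal levels, and *Mitf* held 2 counts on each side. On the CatVI plates, with 4 cells holding *Cd34*, the pairing could not be described.

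**Figure D3:**
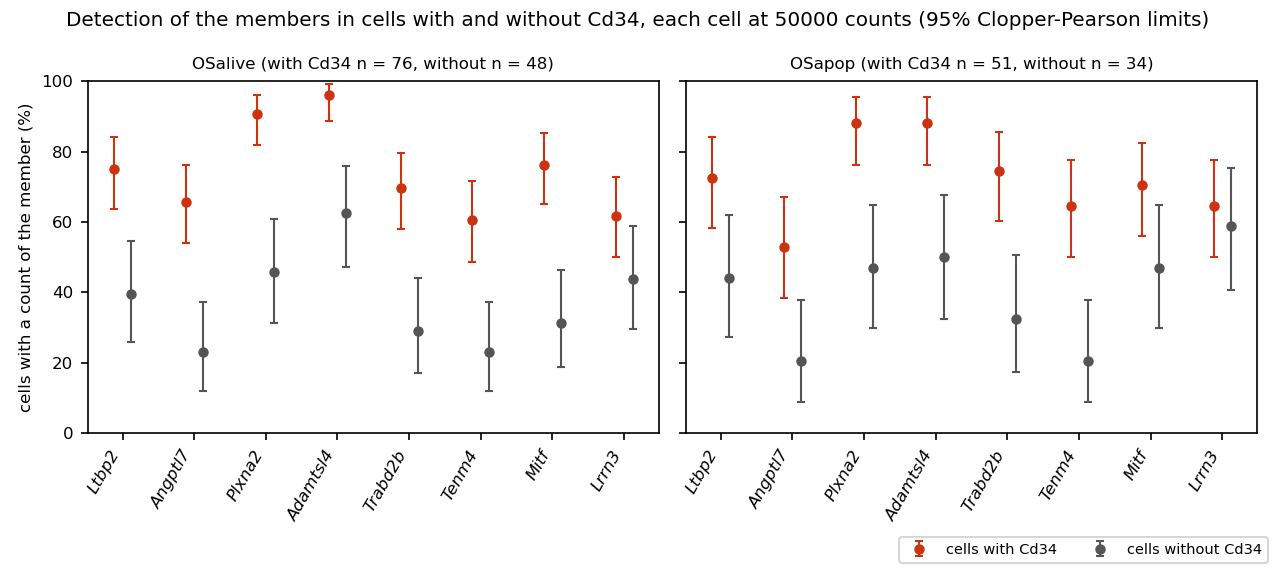
Share of cells with a count of each member among cells with and without *Cd34*, in percent with exact 95% limits, each cell thinned to 50000 counts, in OSalive and OSapop. In both sorts the cells with *Cd34* lie above those without for each member, with the smallest gap in OSapop for *Lrrn3* (5.88 percentage points).

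The stage difference was also present among cells with *Cd34* alone. In the cells with *Cd34*, 68.2% of CatVII and 84% of AnaVI, *Mitf* was at 53.5 and 6.61 CPM, 8.09 times as high, and *Lrrn3*, *Adamtsl4* and *Ltbp2* were 7.12, 6.35 and 6.01 times as high. *Plxna2* was 3.05, *Tenm4* 2.25, *Angptl7* 1.97 and *Trabd2b* 1.53 times as high. Among 69 CatVII and 24 AnaVI cells without *Cd34*, *Plxna2* and *Trabd2b* were lower in CatVII, by 1.39 and 1.46 times, and the other 6 were higher. *Lrrn3* was 16.1 times higher, *Mitf* 4.92, *Adamtsl4* 4.04, *Tenm4* 3.30, *Ltbp2* 2.43 and *Angptl7* 1.33 times. Most of these folds rest on few AnaVI counts. *Lrrn3* held 26 counts there in 5 cells, *Tenm4* 25 in 6 cells and *Mitf* 21 in 2 cells. *Adamtsl4* and *Ltbp2* held 41 and 51 counts. The limits of the *Lrrn3* value were log2 3.45 to 4.62. Of those 24 AnaVI cells 18 were MOS cells, and other scalings were not tried on this split. The members were picked on the contrast between these stages, so the values are a description.

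Single CatVII cells carried most of the 8 genes at once. At 50000 counts, the median cell held 5 of 8 in OSalive and in OSapop, 3 in UOS and 2 in LOS, MOS and CatVI. At least 6 were found in 46% of OSalive, 41.2% of OSapop and 1.80% of UOS cells. CatVII cells with *Cd34* held a median of 6 members and those without a median of 3. Each of the 28 pairs of members was found together in CatVII more often than the product of their shares, by 1.07 to 1.43 times. In the CatVII cells with 50000 counts or more, all but 8, the highest Spearman correlation of any pair was 0.53, between *Plxna2* and *Adamtsl4*, and the lowest was 0.07, between *Tenm4* and *Lrrn3*. In the UOS cells, all but 1 of them deep enough, the highest was 0.24. The members were picked as leading genes of CatVII, and pairs of other genes were not counted beside them. Nothing is therefore read from the count of pairs or from the number of members per cell. The pairs share their cells and libraries, so these are descriptions.

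**Figure D4:**
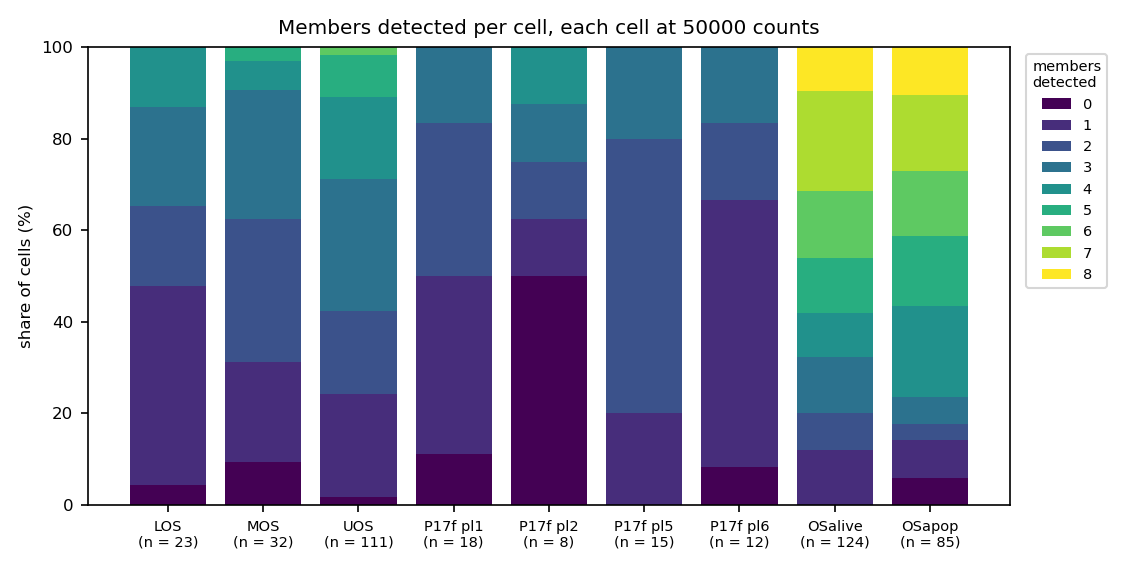
Number of the 8 members found per cell by group, as the share of cells in percent, each cell thinned to 50000 counts. The CatVII sorts hold cells with 6 or more members (46% in OSalive and 41.2% in OSapop), which are rare in UOS (1.80%).

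Relatives of the members, taken from lists, held genes that were higher and genes that were lower in CatVII than in AnaVI, beside 11.5% of all genes tested that were at least 2-fold higher and 24.1% that were at least 2-fold lower. Of the 9 other latent TGF-β binding proteins, fibrillins and microfibril genes, 2 were at least 2-fold higher in CatVII than AnaVI (*Fbn1*, 2.27-fold, and *Fbn2*, 9.74-fold, both fibrillins) and 3 lower (*Ltbp3*, 2.02-fold, *Ltbp4*, 2.14-fold, and *Fbln5*, 66.5-fold). Before thinning, *Fbn1* was found in 5.07% of CatVII and 7.33% of AnaVI cells, at 15.5 CPM in CatVII against 263.5 CPM in LOS. *Fbn2* was at 6.46 CPM in CatVII, in 12% of cells, and *Fbln5* at only 2.95 CPM in AnaVI. Of 17 other plexins, neuropilins and semaphorins with 100 counts or more, *Plxna4*, *Nrp1* and *Sema3c*, a semaphorin ligand, were higher by 4.55, 2.64 and 2.02 times, and *Nrp2* and *Sema3f* were lower by 4.20 and 7.30 times. *Sema3c* was at 94.4 CPM in CatVII, whereas *Nrp1* and *Plxna4* stayed at 2.09 and 0.769 CPM. Of the 4 other angiopoietin-like genes with that many counts, *Angptl6* was 2.54 times higher at 0.397 CPM and *Angptl4* was 28.1 times lower. Of 5 other ADAMTS-like genes 1 was higher and *Papln* was 2.38 times lower. *Tfeb* and *Tfe3*, relatives of *Mitf*, were 2.08 and 0.93 times as high in CatVII as in AnaVI, *Tfeb* at only 2.67 CPM in CatVII. *Lrrn1*, a relative of *Lrrn3*, was 4.21 times lower, from only 2.08 CPM in AnaVI. Of 9 Wnt inhibitors, 3 were higher, *Rnf43* by 2.29-fold, and 2 lower, *Sfrp1* by 2.82-fold and *Sfrp2* by 2.54-fold. The secreted Wnt binder *Sfrp1* had levels of 235.2 CPM in AnaVI cells and 83.5 CPM in CatVII cells. None of 8 other teneurins and their partners was 2-fold higher, although *Tenm2* had a level of 217.6 CPM in CatVII against 122.4 CPM in AnaVI. *Flrt1* was 2.17 times lower, at 3.69 CPM in AnaVI and 1.70 CPM in CatVII. Of the bulge and ORS markers, *Lgr5* and *Nfatc1* were 5.99 and 4.87 times higher, and *Krt15* and *Krt14* 3.75 and 2.69 times lower.

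Over the 9 groups, the 5 genes outside the set whose log2(CPM + 1) was most like the mean of the members' scaled profiles were *Kcnma1* (Pearson 0.97), *Boc* (0.96), *Nrcam* (0.96), *Cadm1* (0.93) and *Pkd1* (0.93), out of 7156 candidates. *Boc*, a co-receptor of hedgehog ligands, was at 150.9 CPM in OSalive, 151.7 CPM in OSapop and 56.1 CPM in UOS. *Nrcam* and *Cadm1* encode immunoglobulin-family adhesion molecules, and *Nrcam* was at 12.4 CPM in OSalive and 18.1 CPM in OSapop against 1.68 CPM in UOS. The members themselves correlated with that mean at 0.96 (*Lrrn3*), 0.94 (*Adamtsl4*), 0.85 (*Ltbp2*), 0.74 (*Angptl7*), 0.71 (*Plxna2*), 0.69 (*Mitf*), 0.63 (*Trabd2b*) and 0.05 (*Tenm4*), each being part of it. Between single members the closest pair was *Adamtsl4* and *Lrrn3* (0.95), and *Tenm4* ran against *Trabd2b* (-0.64). The 9 groups share stages and libraries' depths, and no test was made of these values.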

How the data were processed

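Each value is an estimated count of 1 gene in 1 cell, deposited by the authors. Per the submitters' processing notes and the study's methods, alignment used STAR 2.6 and mm39, quantification Salmon 1.4.0, and import into R tximport. Counts were present for 1036 of 1037 cells. Of the values, 0.471% were not whole, and counts were rounded. The deposited cell metadata table was not used. All columns of the count table were mapped to a cell (0 unmapped), 1 cell had no column, and 1 cell with conflicting stage labels was left out of every group. Wells with more than 1 cell were screened out by a Gapdh assay per the labels, and no doublet caller was run.

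Genes were positioned from the GRCm39 annotation. Promoter windows came from a RefSeq table of GRCm38.p6, whose coordinates differ from those of the count files' build. CPM used all genes as denominator, with spike-ins left out. Poisson, binomial and Clopper-Pearson limits at 95% were exact. No test was used, since each group is 1 sample. A fold of 2 and 100 counts over both groups together defined a called gene, and a group at 0 was given a floor of 3 counts. Thinning to 50000 counts used a fixed seed and kept 428 cells, with 35 too shallow. The calculation of ratios and limits was checked on counts simulated with counting error only, and thinning was not checked. That simulation cannot show how well the limits hold for these amplified counts, where single cells can weigh heavily. Python 3.11.15, NumPy 2.4.6, SciPy 1.17.1, R 4.3.3 and edgeR 4.0.16 (for TMM factors) were used.

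The members and gene lists were chosen with earlier results of these data known. The genes named were the 8 members, *Cd34*, genes of the lists that reached 10 CPM in a group with at least 2-fold between CatVII and AnaVI, defining markers of other cell types, and the 5 genes with a symbol, found in 75 or more cells and at 10 CPM or more in a group, with the profile most like the members. *Krt5*, *Itga6*, *Tenm2*, *Angptl6*, *Tfeb*, *Tfe3*, *Lrrn1* and overlapping genes were named after their values were seen.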

Additional observations from a re-analysis of the deposited data

Results flagged for a closer look

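In 1 cell whose title belongs to a CatVII sort but whose stage label is CatVI, which was left out of every group, *Tenm4* held 7 counts of 52544, above the 3 counts that a level of 0 allows. *Lrrn3* held 3 counts there and the other 6 members none.

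For 5 members the log2 difference of the apoptotic from the alive sort had opposite signs in CatVII and among phagocytic CatVI cells, where P17f_pl5 was compared with P17f_pl1 and P17f_pl2. The difference between the stages was not tested, as each sort is 1 sample. *Ltbp2* was at 0.027 (-0.011 to 0.064) in CatVII and at -2.62 (-3.26 to -2.04) in CatVI, from levels of 5.78 and 35.6 CPM. *Mitf* was at 0.012 (-0.045 to 0.069) in CatVII and at -1.13 (-1.76 to -0.54) in CatVI, from levels of 6.67 and 14.6 CPM. The CatVII intervals of both include 0. The other 3 rest on few CatVI counts. *Angptl7* was at log2 -0.36 (OSapop against OSalive) in CatVII and at 3.37 (0.33 to 8.89) in CatVI, where it had 6 and 1 counts. *Trabd2b* was at 0.061 in CatVII, and at -2.09 in CatVI, where it had 0 counts in apoptotic and 22 in alive cells and the ratio was taken at the floor of 3 counts. *Lrrn3* was at 0.30 in CatVII, and at -1.09 in CatVI, with 0 and 11 counts and the same floor.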

How the results depend on the processing

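The number of members called in the 5 comparisons stayed within 1.5 times its value in all 58 alternatives, which changed the denominator, scaling, weight of cells, gene minimum, depth, sorts, plates or *Cd34* threshold, or left out the cell with the most counts of a member (chosen after seeing the data). Of 464 values of single members under these alternatives, 440 stayed on their side of 2-fold, 24 crossed it and 0 of the called values changed sign. *Tenm4* in CatVII against AnaVI ranged from log2 0.77 to 2.87, and *Angptl7* from 0.43 to 1.48. For CatVI against AnaVI, *Mitf* passed 2-fold with MOS alone as reference (4.61, from 4 MOS counts), when cells were thinned (1.60) and without P17f_pl1 (1.20) or P17f_pl5 (1.11), and *Plxna2* with MOS alone as reference (1.92), when cells were thinned (1.15) or weighted equally (1.13). In CatVII against AnaVI, *Mitf* was above *Lrrn3* when cells were thinned (3.31 and 2.57) or weighted equally (2.69 and 2.59). *Angptl7* in UOS against MOS passed 2-fold without its highest cells (1.19). *Lrrn3* in cells with against without *Cd34* ranged from -0.31 to 0.52. The cause was not tested. No paired analysis was possible because each group is 1 pool of animals and no replicate number links groups. The number of cells limits the CatVI plates most, with 9 to 19 passing cells each, and depth limits LOS, where 23 of 39 cells reached 50000 counts.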

Other observations

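On the plates P17f_pl3_NonPhagoHFSC_alive and P17f_pl4_NonPhagoHFSC_alive, where no cell passed the gene minimum, the 67 and 57 cells together held 28660 counts and 0 counts of any of the 8 members. Among cells under the gene minimum on P17f_pl6_NonPhagoHFSC_apop, *Tenm4* and *Plxna2* held 24 counts each in 55 cells, and the cells of OSapop under the minimum held 55 counts of *Angptl7*, 43 of *Ltbp2* and 37 of *Plxna2* in 49 cells.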
